A study of Homo sapiens with 6 samples.

Results

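The glucocorticoid receptor and its direct targets were described in MCF10A, a cell line from human breast epithelium that is not tumorigenic. The set holds 10 of the 58735 genes of the deposited count table, found there by gene name: the receptor genes NR3C1 and NR3C2, the hormone-activating enzyme gene HSD11B1, and the targets FKBP5, TSC22D3, PER1, KLF9, ZBTB16, CEBPD and SGK1. Knockdown cells received an siRNA that targets DAB2IP (siDAB2IP, 3 libraries) and control cells a nontargeting pool (siControl, 3 libraries). RNA was isolated 48 hours after transfection. The growth medium, the same for both groups, contained hydrocortisone at 0.5 μg/mL, together with insulin at 10 μg/mL, epidermal growth factor at 20 ng/mL, cholera toxin at 100 ng/mL and horse serum at 5%. Hydrocortisone is cortisol, so the receptor had its ligand in both groups, and no sample without the hormone was analysed here. The knockdown rests on a single siRNA reagent in a single cell line. The methods name the control as an On-Target plus pool and give the DAB2IP siRNA by catalog number only, so a difference in reagent type, if any, cannot be told apart from the target. The 10 genes were listed with the differences between these groups already known, so their own differences are given as a description and without p-values.

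Cortisol enters the cell and binds the glucocorticoid receptor, which is held in the cytoplasm by the chaperone HSP90 and its partners. The loaded receptor moves to the nucleus, binds glucocorticoid response elements in DNA and switches on a small group of genes that respond in nearly every tissue. In the breast the hormone acts with insulin and prolactin on the alveolar epithelium, and it is a standard supplement for mammary epithelial cells in culture.

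Each library held between 16353783 and 21916062 counts. Across genes, siDAB2IP replicate 3 was less like the other libraries of its group (Pearson r of log2 CPM 0.978 and 0.979) than those were like each other (0.989), and its r with the siControl libraries was 0.959 to 0.963. DAB2IP was at 91.6 ± 13.1 CPM in siControl and 25.1 ± 2.57 CPM in siDAB2IP libraries (SD, n = 3). On the log2 scale it differed by −1.86 (SE 0.13, adjusted p = 9.71e-05 from edgeR). CPM here are counts scaled to the TMM-adjusted library total, and SDs are between the 3 libraries of a group. In all, 15430 genes passed the filter on low counts and were tested with the quasi-likelihood test of edgeR. With a Benjamini-Hochberg adjusted p under 0.05 as the threshold, 1011 (6.55%) rose and 1181 (7.65%) fell, 14.2% in either direction. A lower level in bulk RNA can come from fewer cells of a type or from less RNA per cell, which cannot be told apart here. The labels do not say whether replicates were separate cultures, so p-values measure the spread between these libraries only. Summed over 8 mammary epithelial markers, the siControl libraries had 9704 to 12042 CPM and the siDAB2IP libraries 6259 to 7650 CPM, with KRT5, KRT6A, KRT14 and KRT17 past the threshold and lower, of which KRT17 lost its call without any siControl library, without siDAB2IP replicate 1 or siDAB2IP replicate 2, and with limma. TP63 had a log2 fold change of −0.57 and did not pass, though it did with the replicate number added as a block. CDH1, ITGB4 and EGFR had 0.09, 0.12 and 0.03 and did not pass, so the lower sum came mostly from the keratins. Of 10 markers of blood, endothelial, stromal and fat cells, summing to between 66.3 and 96.6 CPM in siControl and 88.6 and 109.9 CPM in siDAB2IP, CD3E and ADIPOQ had no count in any library, the leukocyte gene PTPRC had 0 to 4 counts, and CD14 was at 56.8 ± 18.3 CPM in siControl (SD, n = 3). Of the 5 markers of this list that were tested, COL1A1 rose from 15.3 to 26.3 CPM, a call lost without siControl replicate 1 or siControl replicate 2. PECAM1, VWF and PLIN1 had log2 fold changes of −0.69, −0.64 and −0.66 and CD14 one of 0.18, none past the threshold. PECAM1 did pass with the replicate block. The part of these marker differences in the results was not tested.

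Of the steroid receptor genes given here, NR3C1 had the highest level per length. It encodes the glucocorticoid receptor and lies on chromosome 5 from 143277931 to 143435512, minus strand (GRCh38, as for all positions below). NR3C1 was at 82.2, 90.7 and 91.3 CPM in siControl replicates 1, 2 and 3, and at 79.4, 77.3 and 71.7 CPM in the siDAB2IP replicates. Every siDAB2IP library was below every siControl library, but the gap was narrow, and the mean was 86.5% of the control mean (log2 fold change −0.21, SE 0.09). NR3C2 encodes the mineralocorticoid receptor, which also binds cortisol, and lies on chromosome 4 from 148078762 to 148444698, minus strand. It had 4, 6 and 8 counts in siControl and 8, 9 and 5 counts in siDAB2IP libraries, between 0.249 and 0.498 CPM, so the groups overlapped and it did not pass the filter. Per length, NR3C1 averaged 9.52 FPKM in siControl and NR3C2 0.0499 FPKM. Of the related receptor genes, the estrogen receptor gene ESR1 had 3 to 11 counts and ESR2 3 to 26 counts, and the progesterone receptor gene PGR had 0 counts in all 6 libraries, where a count of 3 corresponds to 0.139 to 0.187 CPM. ESR1 and ESR2 overlap the tested genes SYNE1 and SYNE2 on the opposite strand, so part of their counts may come from those genes.

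HSD11B1, on chromosome 1 from 209686178 to 209734950, plus strand, encodes the enzyme that regenerates cortisol from inactive cortisone. It was at 4.98, 3.90 and 5.58 CPM in siControl and at 5.25, 6.92 and 3.94 CPM in siDAB2IP libraries. The groups overlapped, and the log2 fold change was 0.16 (SE 0.25). The opposing enzyme, which inactivates cortisol, is encoded by HSD11B2. It was at 15.9 ± 2.19 CPM in siControl and 11.6 ± 2.15 CPM in siDAB2IP libraries (SD, n = 3) and did not pass the threshold (log2 fold change −0.45, SE 0.18, adjusted p = 0.113 from edgeR), though it did with the replicate block. Per length, HSD11B2 averaged 5.89 FPKM in siControl against 3.16 FPKM for HSD11B1.

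In the control cells the targets ranged from the upper middle to the top of the genes tested. Ordered by mean FPKM in siControl, a count scaled by gene length and by library size, CEBPD was first with 88.1 ± 14.99 FPKM (SD, n = 3) and FKBP5 second with 84.2 ± 9.60 FPKM, and their ranges over the libraries overlapped. Both lay above more than 97% of the genes tested (97.8% and 97.6%). TSC22D3 followed with 39.8 ± 7.44 FPKM, PER1 with 24.9 ± 1.72, ZBTB16 with 12.2 ± 0.144, NR3C1 with 9.52 ± 0.564, SGK1 with 6.24 ± 0.751 and KLF9 with 6.07 ± 0.0933 FPKM. SGK1 and KLF9 lay above 61.7% and 60.8% of the genes tested. Apart from these, whose ranges overlapped, each of these was above the next in every siControl library. HSD11B1 and NR3C2 came last. In the siDAB2IP libraries the means were 52.3 FPKM for CEBPD, 72.6 for FKBP5 and 19.0 for TSC22D3.

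**Figure D1:**
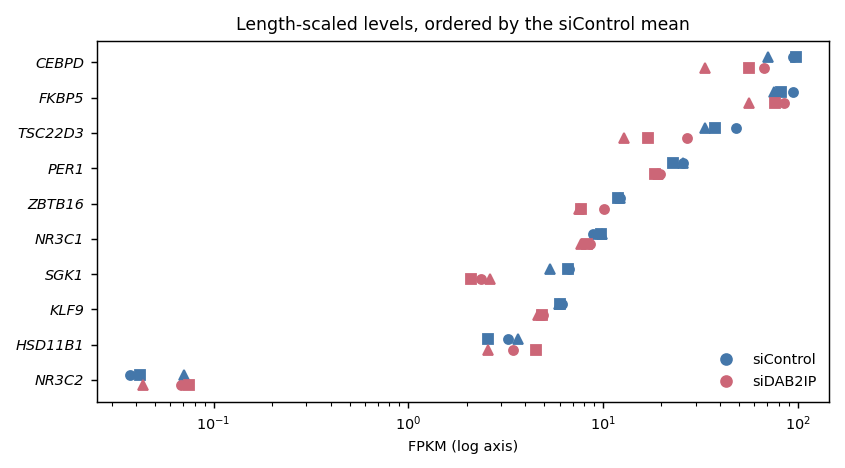
FPKM of the 10 genes (log axis) in each siControl (blue) and siDAB2IP (red) library, ordered by the siControl mean, with circle, square and triangle for replicates 1, 2 and 3. Levels span from under 0.1 FPKM for NR3C2 to between 70.9 and 98.4 FPKM for CEBPD in siControl.

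FKBP5, on chromosome 6 from 35573585 to 35728583, minus strand, encodes a cochaperone that lowers the affinity of the receptor for its hormone, and its induction by the receptor is a feedback loop. It was at 1015.7, 882 and 812 CPM in siControl and at 913, 821 and 604 CPM in siDAB2IP libraries. Here the groups overlapped. Only siDAB2IP replicate 3 was below all control libraries, and the log2 fold change was −0.21 (SE 0.16). Without siDAB2IP replicate 3 it was −0.06. Within each replicate number the siDAB2IP library was lower, and with the replicate block the log2 fold change was −0.23 (SE 0.11).

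TSC22D3, on chromosome X from 107713221 to 107777342, minus strand, encodes GILZ, a leucine zipper protein that carries part of the anti-inflammatory action of the hormone. Its level was 231, 181 and 162 CPM in siControl and 129.98, 81.8 and 62.2 CPM in siDAB2IP libraries. All 3 siDAB2IP libraries were below the control range, and the mean was 47.7% of control (log2 fold change −1.07, SE 0.24). Leaving out siDAB2IP replicate 3 gave −0.85 and leaving out siDAB2IP replicate 1 gave −1.41. The replicate block gave −1.12 (SE 0.11). The counts are per gene and do not separate the 17 transcripts that GENCODE release 29 lists for TSC22D3, each with its own start.

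SGK1, on chromosome 6 from 134169246 to 134318112, minus strand, encodes a kinase that promotes sodium transport and cell survival and is induced by serum as well as by glucocorticoids. With all 6 libraries it had the largest difference of the 10 genes. Without siDAB2IP replicate 1 the log2 fold change was −1.41 for TSC22D3 and −1.40 for SGK1. SGK1 was at 67.7, 66.8 and 54.3 CPM in siControl and at 24.0, 21.2 and 26.7 CPM in siDAB2IP libraries. The highest siDAB2IP library was below the lowest control library by a wide margin, and the mean was 38.1% of control (log2 fold change −1.39, SE 0.13).

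CEBPD, on chromosome 8 from 47736909 to 47739086, minus strand, encodes a bZIP transcription factor of the acute-phase response. It was at 209, 216 and 156 CPM in siControl and at 148, 124 and 74.1 CPM in siDAB2IP libraries. The groups did not overlap, though siDAB2IP replicate 1 was close to siControl replicate 3, and the log2 fold change was −0.75 (SE 0.22), or −0.51 without siDAB2IP replicate 3. The replicate block gave −0.79 (SE 0.11).

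ZBTB16, on chromosome 11 from 114059593 to 114250676, plus strand, encodes the zinc finger repressor PLZF. Its control libraries were nearly equal at 78.9, 76.9 and 78.8 CPM, while the siDAB2IP libraries were at 65.4, 49.8 and 48.4 CPM. All siDAB2IP libraries were lower, and the log2 fold change was −0.52 (SE 0.12).

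PER1, on chromosome 17 from 8140472 to 8156506, minus strand, encodes a repressor of the circadian clock that glucocorticoids and cAMP induce. It was at 184, 161 and 182 CPM in siControl and at 138, 131 and 136 CPM in siDAB2IP libraries. The groups were apart and the siDAB2IP libraries were close to each other (log2 fold change −0.38, SE 0.10). KLF9, on chromosome 9 from 70384597 to 70414624, minus strand, encodes a zinc finger transcription factor that is a receptor target in many cell types. It was at 32.3, 31.5 and 31.3 CPM in siControl and at 25.8, 25.4 and 24.2 CPM in siDAB2IP libraries. Spread within each group was small, the groups were apart and the log2 fold change was −0.33 (SE 0.10).

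**Figure D2:**
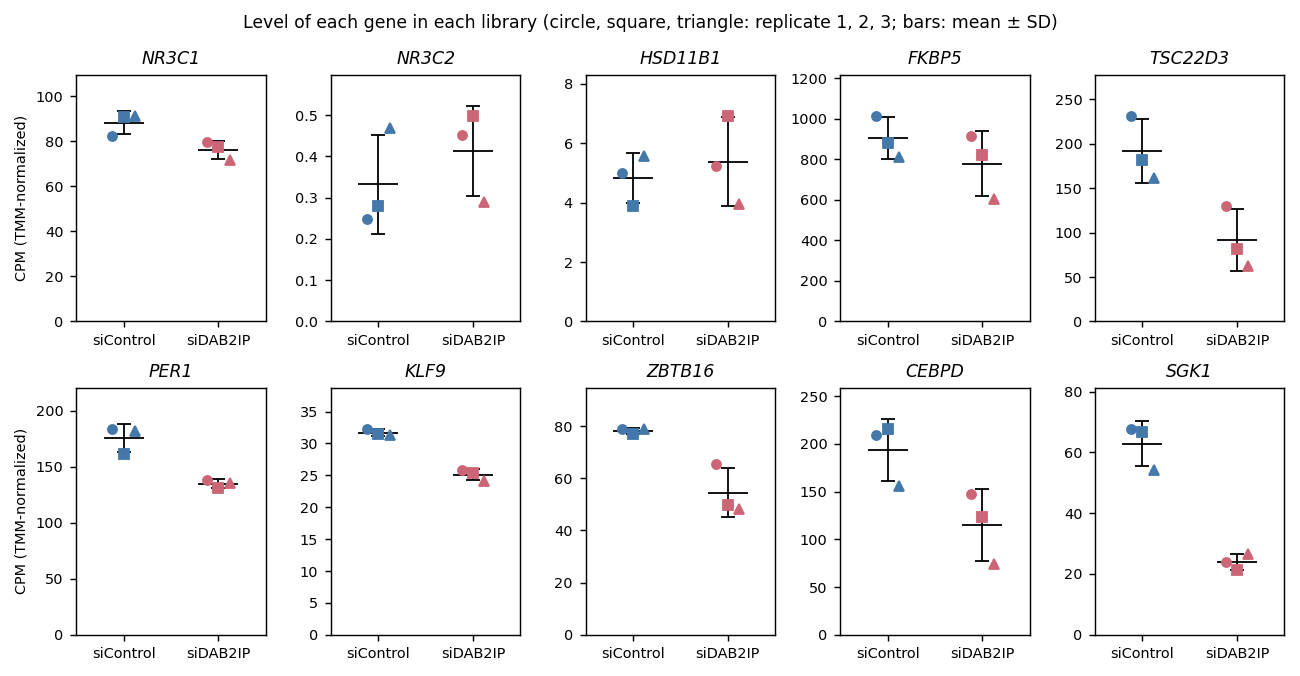
TMM-normalized CPM of each gene in each library, with circle, square and triangle for replicates 1, 2 and 3 and black bars for the mean ± SD of 3 libraries. The groups do not overlap for NR3C1, TSC22D3, PER1, KLF9, ZBTB16, CEBPD and SGK1, and they overlap for NR3C2, HSD11B1 and FKBP5.

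In total, 9 of the 10 genes passed the filter. Of these, 8 had a negative log2 fold change and 7 had all siDAB2IP libraries below all siControl libraries, against 18.3% of all genes tested. The median log2 fold change was −0.38, against 0.01 over all genes tested. By the threshold used for all genes, and as a description of the contrast the set was chosen on, those past it were TSC22D3, PER1, ZBTB16, CEBPD and SGK1, 5 genes that were lower, against 7.65% of all genes in that direction and 14.2% in either. Since the set was chosen on this contrast, nothing is read from these shares. Adding the replicate number as a block gave 6, since KLF9 then passed too, while over all genes 1754 fell against 1181 in the main fit. With limma on log2 FPKM the count was 5 as well, but KLF9 passed and CEBPD did not. Of all 12412 genes in the limma fits, 817 fell on log2(FPKM + 1) and 758 on log2(FPKM + 0.1). When siControl replicate 1 or siDAB2IP replicate 2 was left out the count in the set dropped to 1, which was SGK1. Over all genes, 752 and 1019 fell in those fits. When siControl replicate 2 or siControl replicate 3 was left out the count in the set was 2, SGK1 and TSC22D3, while 459 and 650 of all genes fell. Without siDAB2IP replicate 3, the library that stood apart across genes, the same 5 genes were past the threshold, and the log2 fold changes were −0.17 for NR3C1, −0.38 for PER1, −0.31 for KLF9, −0.44 for ZBTB16 and −1.48 for SGK1.

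Few counts were assigned to overlapping genes. Of the 10 genes, 8 overlap 16 other annotated genes, and 0 of those 16 passed the filter. The highest count of any of them in a library was 5. How reads shared by overlapping genes were counted is not given in the sources used here, so their number is not known.

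The libraries of a group did not vary in the same way for every target. After subtraction of the group means, FKBP5, TSC22D3, KLF9 and CEBPD followed each other, with Pearson r of log2 CPM between 0.869 and 0.997 over the 6 libraries for the 6 pairs. In the siDAB2IP group each of these was highest in replicate 1 and lowest in replicate 3, as were ZBTB16 and NR3C1. ZBTB16 correlated with the 4 genes at between 0.66 and 0.87. SGK1 correlated with the 4 genes at between −0.18 and 0.05, PER1 at between −0.19 and 0.26, and NR3C1 at between 0.23 and 0.44. The 4 genes were picked after their values were seen. The points share library and depth, so these are descriptions. Thus, SGK1 and PER1 were about equally low in all 3 siDAB2IP libraries, at −1.23 to −1.56 and −0.34 to −0.42 relative to the siControl mean of log2 CPM. In contrast, TSC22D3 lay between −0.54 and −1.60 and CEBPD between −0.37 and −1.37.

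**Figure D3:**
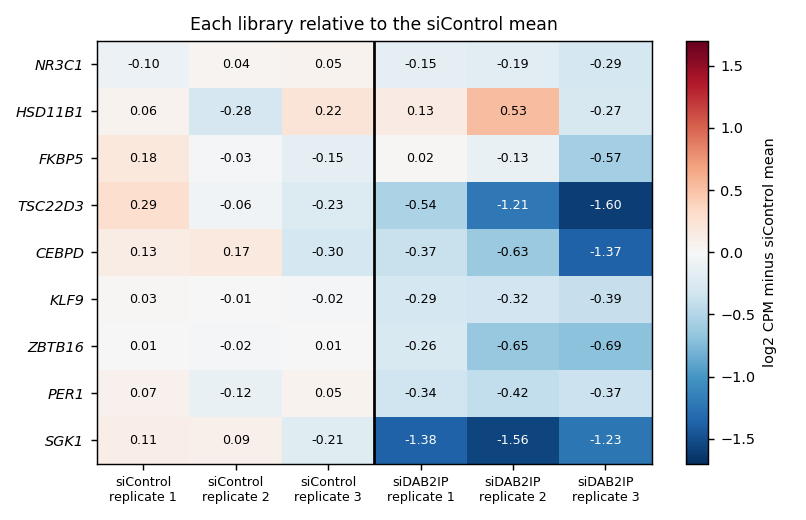
Log2 CPM of the 9 genes that passed the filter in each library, minus the siControl mean (color scale and printed values). SGK1 lies between −1.23 and −1.56 in the siDAB2IP libraries, whereas TSC22D3 runs from −0.54 in replicate 1 to −1.60 in replicate 3.

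Genes with the profile most like that of a receptor gene or target were sought among 9436 other genes with a mean of at least 10 CPM, by Pearson r of log2 CPM over the 6 libraries. For NR3C1 the first were SLC30A5, TMED2, TIFA, TMEM245 and GPHN, with r from 0.996 to 0.988, for FKBP5 they were ALOX15B, ADCY6, MYO5B, EIF3A and SHMT1, and for TSC22D3 they were DYRK2, RIPOR2, MAN2B2, CSNK2A2 and USP37. Over 6 libraries many genes came close to this. An r of at least 0.95 was reached by 146 genes for NR3C1, by 90 for FKBP5 and by 212 for TSC22D3. RIPOR2 was at 94.6 CPM in siControl and 25.5 CPM in siDAB2IP libraries, a larger difference than that of TSC22D3 itself (log2 fold change −1.89).

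Start sites of the set were examined for the glucocorticoid response element, and also for a cAMP response element core, an E-box and an AP-1 site. RefSeq (GRCh38.p14) gave 23 windows of 300 bases, from 250 before to 50 after a start site, for 8 of the 10 genes. No window was used for ZBTB16 or CEBPD. Letters were searched on both strands: GNACA and TGTNC with 3 bases of any kind between them for the full glucocorticoid response element, AGAACA for its hexamer, TGACG for the core of a cAMP response element, CACGTG for an E-box and TGANTCA for an AP-1 site. The full element was in 0 of the 23 windows, and it was in 0.39% of the 35116 windows of all genes. At so low a share 0 was the likely outcome for any 23 windows, so nothing is read from it. Sequence outside the windows was not searched, so elements farther from a start would be missed. The hexamer occurred in 1 window each of FKBP5 and SGK1, against 14.8% of all windows, and the E-box in 1 window each of PER1 and FKBP5, against 7.26%. The cAMP core was in 9 of the 23 windows (39.1%), which belong to NR3C1, NR3C2 and TSC22D3 and partly overlap, against 24.6% of all windows, and an AP-1 site was in 1 window of NR3C1, against 7.71%. These are matches of letters near a start and not binding sites. The windows below show SGK1, TSC22D3 and PER1, whose groups were apart, beside FKBP5, whose groups overlapped. There were 3 windows for SGK1, 4 for TSC22D3, 1 for PER1 and 2 for FKBP5, and 1 is shown for each. Which start these cells use was not tested, so the windows do not serve to compare the genes. Each window runs 5′ to 3′ from 250 bases before to 30 bases after the start with matches in capitals. They were picked after the matches were known. In FKBP5 (chr6:35728554-35728833, minus strand) the capitals mark the hexamer at bases 1 to 6, in SGK1 (chr6:134177832-134178111, minus strand) the hexamer at bases 6 to 11, in PER1 (chr17:8152375-8152654, minus strand) the E-box at bases −173 to −168, and in TSC22D3 (chrX:107717033-107717312, minus strand) the cAMP cores at −60 to −56 and −50 to −46.
FKBP5: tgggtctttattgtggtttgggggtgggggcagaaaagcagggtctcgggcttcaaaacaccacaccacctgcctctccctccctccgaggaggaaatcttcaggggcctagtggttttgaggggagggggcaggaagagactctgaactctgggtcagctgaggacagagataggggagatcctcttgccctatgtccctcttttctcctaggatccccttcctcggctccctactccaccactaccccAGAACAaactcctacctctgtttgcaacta
SGK1: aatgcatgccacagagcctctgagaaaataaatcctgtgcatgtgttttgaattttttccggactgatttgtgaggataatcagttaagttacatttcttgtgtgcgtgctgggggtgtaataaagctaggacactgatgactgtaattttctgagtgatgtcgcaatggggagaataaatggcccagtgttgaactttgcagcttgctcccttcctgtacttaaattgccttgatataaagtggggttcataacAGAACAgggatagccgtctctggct
PER1: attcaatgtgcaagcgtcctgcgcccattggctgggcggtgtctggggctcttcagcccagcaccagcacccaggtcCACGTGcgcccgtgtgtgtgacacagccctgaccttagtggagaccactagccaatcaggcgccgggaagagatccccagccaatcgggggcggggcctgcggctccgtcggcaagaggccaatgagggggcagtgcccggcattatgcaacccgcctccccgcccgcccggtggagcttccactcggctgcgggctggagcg
TSC22D3: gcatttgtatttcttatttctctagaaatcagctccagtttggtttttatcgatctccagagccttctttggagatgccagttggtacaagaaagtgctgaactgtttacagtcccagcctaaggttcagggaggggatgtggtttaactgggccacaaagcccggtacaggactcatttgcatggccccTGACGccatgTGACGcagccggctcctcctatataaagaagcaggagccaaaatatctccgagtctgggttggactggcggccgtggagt

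Among the chaperones and cochaperones that fold and hold the receptor, a single gene passed the threshold. All 16 genes of this list were tested, 1 fell and 0 rose (0 at an unadjusted p under 0.05 and 0 with DESeq2), against 7.65% and 6.55% of all genes, and the median log2 fold change was −0.17. The gene that fell was DNAJB1, an HSP40 that delivers clients to HSP70, from 117 ± 4.70 to 77.7 ± 6.89 CPM (SD, n = 3; log2 fold change −0.59, SE 0.10, adjusted p = 0.00528 from edgeR). It overlaps the abundant gene TECR on the opposite strand, and the strand setting of the counting is not given in the sources used here. HSP90AA1 and HSP90AB1, which encode HSP90 itself, had log2 fold changes of −0.36 and −0.05 (adjusted p = 0.244 and 0.852 from edgeR). With the replicate block 3 chaperone genes fell, as they did without siDAB2IP replicate 2, while 1754 and 1019 of all genes fell.

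Of 22 coactivators, corepressors and chromatin partners of the receptor, all tested, 4 fell and 0 rose (2 at an unadjusted p under 0.05 and 0 with DESeq2), against 7.65% and 6.55% of all genes, with a median log2 fold change of −0.18. PPARGC1A, which encodes the metabolic coactivator PGC-1α, fell from 9.17 ± 0.933 to 3.06 ± 0.515 CPM (SD, n = 3; log2 fold change −1.58, SE 0.20, adjusted p = 0.0016 from edgeR). NCOA1, the gene of the steroid receptor coactivator SRC-1, fell from 14.1 ± 0.257 to 6.56 ± 1.59 CPM (log2 fold change −1.10, SE 0.19, adjusted p = 0.00601 from edgeR). Its paralogs NCOA2 and NCOA3 had log2 fold changes of −0.31 and −0.27 and did not pass the threshold. SMARCD1, a subunit of the SWI/SNF remodeling complex, had a log2 fold change of −0.67 (SE 0.11). The Mediator subunit gene MED14 had one of −0.42 (SE 0.10, adjusted p = 0.0244 from edgeR), and its adjusted p was between 0.0284 and 0.0815 when a library was left out, over 0.05 without siControl replicate 2, siControl replicate 3 or siDAB2IP replicate 1. Without siControl replicate 1, 1 gene of the list rose, while 434 of all genes did. MED1, whose product binds the receptor directly, was at 69.3 ± 4.40 CPM in siControl and 81.3 ± 3.27 CPM in siDAB2IP libraries and did not pass the threshold.

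Of 13 genes for the making, transport and breakdown of cortisol, 5 were tested, and 3 fell and 0 rose (0 at an unadjusted p under 0.05 and 0 with DESeq2), against 7.65% and 6.55% of all genes. CYP3A5, an enzyme that hydroxylates cortisol, fell from 7.39 ± 2.64 to 1.92 ± 0.272 CPM (SD, n = 3; log2 fold change −1.94, SE 0.30, adjusted p = 0.00384 from edgeR). SRD5A1, a reductase of steroid hormones, had a log2 fold change of −0.54 (SE 0.12), and its adjusted p of 0.0205 became 0.0754 without siControl replicate 2 and was over 0.05 without siControl replicate 1. H6PD, which supplies the cofactor that HSD11B1 needs to make cortisol, changed from 121 ± 21.5 to 71.7 ± 24.7 CPM (log2 fold change −0.76, SE 0.22, adjusted p = 0.0467 from edgeR). That call was lost without any siControl library and without siDAB2IP replicate 2 (adjusted p up to 0.139, lowest 0.0103) and with limma, and 1 gene of the list fell without siControl replicate 1 or siControl replicate 2. Over all genes, 752 fell without siControl replicate 1 and 459 without siControl replicate 2. The synthesis gene CYP11B1 and the carrier gene SERPINA6 had no count in any library.

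Beyond the 10 genes, 48 further genes that glucocorticoids are widely described to induce were listed, and 40 were tested. Of these, 12 fell and 2 rose, against 7.65% and 6.55% of all genes tested. With the replicate block 18 of the list fell and 3 rose, while 1754 of all genes tested fell and 1479 rose. The median log2 fold change was −0.37, and 34 of the 40 were negative. The list was drawn up with some of these results known. MT1X, MT1E and MT2A, metallothionein genes that bind zinc and copper, had the largest declines. MT2A fell from 1214 ± 18.0 to 377 ± 108 CPM (SD, n = 3; log2 fold change −1.69, SE 0.19, adjusted p = 0.00119 from edgeR), MT1E had a log2 fold change of −2.08 and MT1X one of −2.71. Metallothionein paralogs are so alike that reads may have been assigned to the wrong one, and they also respond to metals. BIRC3, an inhibitor of apoptosis, had a log2 fold change of −1.004 (SE 0.14, adjusted p = 0.00278 from edgeR). BCL6, a transcriptional repressor, fell from 212 ± 33.1 to 107 ± 26.7 CPM (log2 fold change −0.99, SE 0.18, adjusted p = 0.00717 from edgeR), and it overlaps the antisense gene AC072022.2, which averaged 17.7 CPM in siControl and 8.66 CPM in siDAB2IP libraries. GLUL, the gene of glutamine synthetase, had a log2 fold change of −0.98 (SE 0.26, adjusted p = 0.0336 from edgeR), which was over 0.05 without siControl replicate 1, siControl replicate 2 or siDAB2IP replicate 2 (up to 0.106, lowest 0.0134) and with limma. The remaining 6 that fell had log2 fold changes from −0.80 to −0.41. Without siControl replicate 2, 7 of the list fell, while 459 of all genes did.

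Of the genes that rose on this list, ANGPTL4, an inhibitor of lipoprotein lipase, rose from 81.8 ± 9.82 to 266 ± 22.6 CPM (SD, n = 3; log2 fold change 1.699, SE 0.12, adjusted p = 9.71e-05 from edgeR). ANXA1 and CDKN1C were above every siControl library as well, with log2 fold changes of 0.43 and 0.35, and did not pass the threshold (adjusted p = 0.0506 and 0.11 from edgeR). ANXA1 did pass with DESeq2, with other scalings or count filters, with the replicate block and without siDAB2IP replicate 3, which brought the number that rose to 3.

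The list of genes that glucocorticoids hold down was also drawn up with some of these results known, so its counts are not independent evidence of a direction. Of 25 such genes, many of them also targets of NF-κB or AP-1, 18 were tested, and 8 rose and 2 fell, or 44.4% and 11.1% of the list against 6.55% and 7.65% of all genes. The median log2 fold change was 0.38. LIF, an IL-6 family cytokine, rose from 8.15 ± 0.832 to 26.7 ± 5.63 CPM (SD, n = 3; log2 fold change 1.71, SE 0.17, adjusted p = 0.000619 from edgeR). IL1B, the gene of interleukin-1β, had a log2 fold change of 1.35 (SE 0.30, adjusted p = 0.0168; 0.067 without siControl replicate 2). CCND1, which encodes cyclin D1, had one of 1.14 (SE 0.15, adjusted p = 0.00183) and overlaps LTO1 on the opposite strand.

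The prostaglandin synthesis genes PTGS2 and PTGES rose by 0.90 (SE 0.19, adjusted p = 0.0127 from edgeR) and 0.61 (SE 0.18, adjusted p = 0.0489) on the log2 scale. PTGS2 was over the threshold without siControl replicate 1 or siControl replicate 2 (0.07 at most), and PTGES without any siControl library, siDAB2IP replicate 1 or siDAB2IP replicate 2 (up to 0.159, lowest 0.000812) or with limma. FOSL1, a subunit of AP-1, rose by 0.83 (SE 0.14, adjusted p = 0.00636). CXCL8, the gene of the neutrophil chemokine IL-8, rose by 0.59 (SE 0.17, adjusted p = 0.0481), a call that was lost without any library but siDAB2IP replicate 1 (0.0439 to 0.176), with limma and with at least 10 counts required in every library. CXCL2, another neutrophil chemokine, fell from 31.8 ± 2.52 to 11.9 ± 4.34 CPM (log2 fold change −1.42, SE 0.22, adjusted p = 0.00377 from edgeR). MMP9, named because only 2 genes fell, was low in both groups at 1.31 ± 0.219 and 0.261 ± 0.178 CPM (adjusted p = 0.0168 from edgeR; 0.0754 without siControl replicate 2, and over 0.05 without siControl replicate 1). The number that rose was 3 without siControl replicate 2 and 5 without siControl replicate 1, while 264 and 434 of all genes rose. With the replicate block, and also without siDAB2IP replicate 3, 4 fell, whereas 1 fell without siControl replicate 1 or siControl replicate 2. Over all genes, 1754, 1352, 752 and 459 fell in these fits, in that order.

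**Figure D4:**
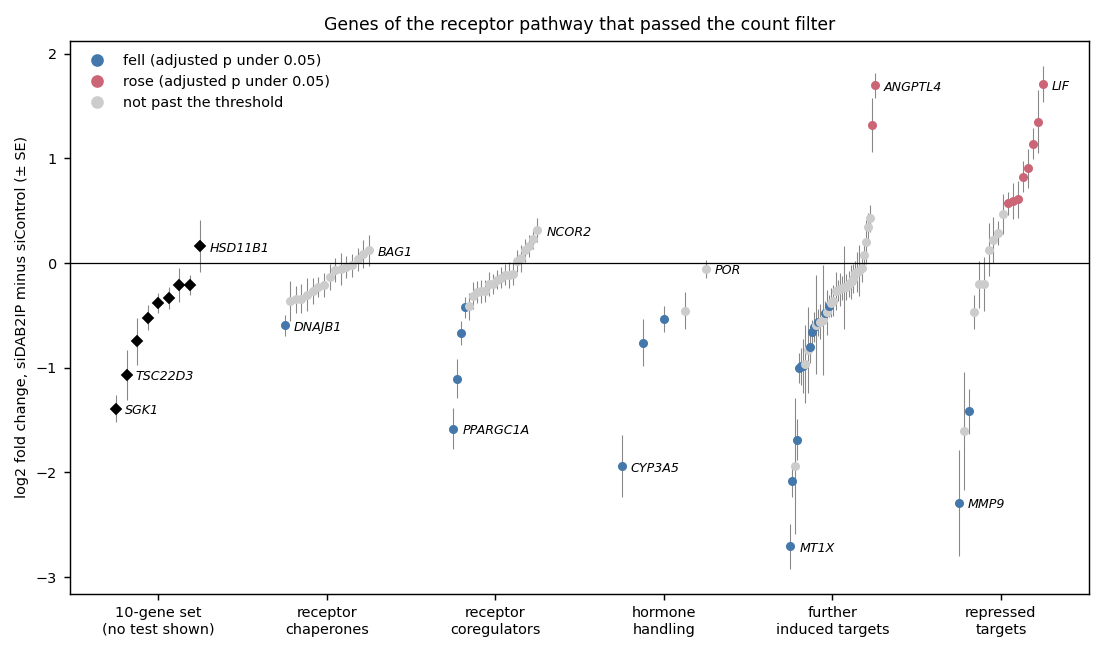
Log2 fold change (siDAB2IP minus siControl, with SE) of every gene that passed the filter in the 10-gene set and in 5 lists around the receptor. Blue and red mark genes that fell or rose past an adjusted p of 0.05, gray marks the others, and black diamonds mark the 10-gene set, for which no test is shown. Most further induced targets lie below 0 (34 of 40), and 12 of the 18 repressed targets lie above it.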

How the data were processed

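The 6 RNA-Seq libraries of MCF10A cells were made and sequenced by Novogene (NovaSeq, paired ends). The submitters' processing notes list STAR 2.6.1d, featureCounts 1.5.0-p3, DESeq2 1.20.0 and edgeR 3.24.3 with hg38. The authors deposited whole-number counts per gene without normalization and FPKM values, which relate counts to gene length and library total. IDs, positions and strands of the 10 genes equal those of GENCODE release 29.

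Differences were tested on the counts with edgeR 4.0.16 under R 4.3.3 (filterByExpr, TMM, glmQLFit, glmQLFTest, Benjamini-Hochberg over 15430 genes). SEs come from the quasi-likelihood F statistic. Log2 CPM use a prior count of 2. Alternatives used DESeq2 1.42.0 and limma 3.58.1. Scripts were tested on simulated data. Depth was 16353783 to 21916062 counts per library, and limits from a count of 3 cover counting error only.

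The members and lists were chosen with earlier results of these data known. Some list genes are not reported here by name. Named genes are the 10 genes, DAB2IP, ESR1, ESR2, PGR, HSD11B2, up to 8 changed genes per list with the largest change and a mean of at least 1 CPM, and the 5 genes most like NR3C1, FKBP5 and TSC22D3. Others (RIPOR2's values, MED1, ANXA1, CDKN1C, MMP9, HSP90 genes, NCOA2, NCOA3, CYP11B1, SERPINA6, markers) were named after their values were seen.

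Replicate numbers were taken to pair the libraries, since log2 CPM of same-numbered libraries correlated at 0.26, 0.15 and 0.25 after subtraction of group means (different numbers, −0.28 to 0.02). Counts, SEs and adjusted p-values are from the fit without this pairing unless the replicate block is named. With that block, an alternative, 1479 of all genes tested rose and 1754 fell.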

Additional observations from a re-analysis of the deposited data

How the results depend on the processing

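The log2 fold changes of the 9 genes that passed the filter moved by less than the SD between replicates in 124 of 126 alternatives, and SGK1 and KLF9 moved more only with limma on log2(FPKM + 1), to −1.10 and −0.29. Leaving out 1 of 3 libraries can hardly move a log2 fold change by more than that SD, so those fits are a weak check. FKBP5 went from −0.21 to −0.06 without siDAB2IP replicate 3 and still counted as within it. None of the 9 genes that was past the threshold changed direction. HSD11B1 alone of the 9 took both signs, from −0.06 without siDAB2IP replicate 2 to 0.34 without siDAB2IP replicate 3. Scaling by library size only moved the median of all genes to 0.05 on the log2 scale.

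Over all genes, the fits that left out a library gave 264 to 1172 genes that rose and 459 to 1352 that fell. For the same fits, 1 to 5 of the 10-gene set fell, 1 to 3 chaperone genes fell, 0 to 1 coregulator genes rose, 1 to 3 hormone handling genes fell, 1 to 3 further induced targets rose and 7 to 14 fell, and 3 to 8 repressed targets rose and 1 to 4 fell. With the replicate block, 3 chaperone genes and 4 repressed targets fell and KLF9, HSD11B2, ANXA1, TP63 and PECAM1 passed the threshold. Every list gene that is named as changed also passed with the block. Without a filter on low counts, 4 chaperone genes and 4 repressed targets fell, and with at least 10 counts in every library 1 repressed target fell. Over all genes, 1692 and 1259 fell in those fits. An adjusted p under 0.01 left 254 genes that rose and 368 that fell, 1 of the 10-gene set (SGK1), 1 hormone handling gene, 6 further induced targets that fell and 1 that rose, and 4 repressed targets that rose and 1 that fell. Limma on log2(FPKM + 0.1) gave 659 genes that rose and 758 that fell. On log2(FPKM + 1) and on log2(FPKM + 0.1), 1 hormone handling gene and 1 repressed target fell, and PPARGC1A, CYP3A5 and MMP9 were below the FPKM filter of those fits. The causes were not tested. Depth limits NR3C2, ESR1 and PGR, whose counts were too low for the test.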
